A study of Mus musculus with 17 samples.

Results

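SAG, a small molecule that activates Smoothened and so switches on Sonic hedgehog (SHH) signaling, was compared with its solvent DMSO across the whole transcriptome of cultured mouse astrocytes. The comparison takes the 3 SAG and 3 DMSO libraries, 6 of the 17 libraries of the study, chosen by their labels and not by any measured value. The study asks how SHH and fibroblast growth factors shape regional programs of astrocytes, and the other 11 libraries belong to its growth factor experiment. All 6 cultures were C57BL/6 astrocytes from whole brains of neonatal mice without meninges, olfactory bulbs and cerebellum. They were purified by immunopanning, in which cells that bind antibodies to CD45 (microglia and macrophages) or O4 (oligodendrocyte precursors) are removed and cells that bind anti-HepaCAM are kept, and were grown in serum-free medium with heparin-binding EGF-like growth factor. After 3 days in vitro, SAG at 500 ng/ml in DMSO, or DMSO alone, was added for 3 days. The labels do not say which mice or pools gave each culture, so every p-value below measures the spread between these libraries, part of which may be technical.

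SHH binds the receptor Patched 1 (encoded by *Ptch1*), which then no longer holds back Smoothened. Active Smoothened leads GLI transcription factors to raise target genes, among them *Ptch1*, *Gli1* and *Hhip*, whose products feed back on the pathway. In the forebrain the pathway is known for ventral patterning, for the induction of oligodendrocyte lineage factors, and, later, for distinguishing groups of mature astrocytes.

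The libraries were read from the 3′ end of transcripts, so counts scaled to library size (CPM) compare genes without a correction for length. They held 30769042 to 68342287 counts. A count was seen for 12548 to 14564 genes in DMSO and for 12123 to 13702 genes in SAG libraries. Of the 12538 genes with enough counts to test, 3.37% to 11.0% were at 0 in a given DMSO library and 6.77% to 13.4% in a given SAG library. Single libraries lacked genes that their group otherwise had: between 181 and 866 genes had at most 3 counts in 1 DMSO library and at least 100 in both others, and 211 to 712 in 1 SAG library. Replicates spread by 115% (common biological coefficient of variation) over all tested genes, and by 45.3% over the 6599 genes with at least 20 CPM on average and at least 10 counts in every library, called abundant genes here. *Hepacam*, the antigen of the selection, lay at 171, 124 and 79.6 CPM in DMSO and 226, 124 and 119 CPM in SAG replicates 1, 2 and 3. Of 18 microglia and macrophage markers 11, among them *Cx3cr1* and *Csf1r*, had no count in any of the 6 libraries, while *C1qc* had 248 counts in DMSO replicate 3 and 697 in SAG replicate 1, *Tyrobp* had 219 in SAG replicate 1 and *Fcer1g* had 233 in DMSO replicate 1. *Cd68* of that list was read in every library, with 27 to 673 counts. Of 17 endothelial and mural markers 6 had none, among them *Cldn5* and *Pecam1*, while *Kdr* had up to 652 counts and *Flt1* up to 272 in a library, and *Acta2*, *Tagln* and *Notch3* were read in every library.

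SAG raised 6 genes and lowered 2 at an adjusted p under 0.05 (edgeR's quasi-likelihood test, Benjamini-Hochberg adjustment), which is 0.0479% and 0.016% of the genes tested. The 6 that rose were *Ptch1*, *Grk3*, *Ccnd1*, *Cdk6*, *Olig1* and *Ckb*. The 2 that fell were *Id4* and *Tspan18*. At an unadjusted p under 0.05, 330 genes (2.63%) were higher and 384 (3.06%) lower. For 780 genes (6.22%) the lowest SAG library exceeded the highest DMSO library, and for 989 (7.89%) the highest SAG library was below the lowest DMSO library. For such a gene the two-sided exact permutation test gives p = 0.1, the smallest that 3 against 3 libraries allow. The median log2 fold change of all tested genes was -0.02.

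*Ptch1*, the receptor and negative regulator of the pathway (RefSeq, GRCm38.p6, chr13:63508328-63573460), gave the smallest p. It lay at 82.3, 104 and 68.1 CPM in DMSO and at 473, 493 and 476 CPM in SAG replicates 1, 2 and 3 (log2 fold change 2.50, SE 0.22, adjusted p = 0.00173). The SAG cultures differed little from each other and all stood far above the controls, and the call held with any single library left out. *Grk3* (chr5:112910478-113015660), a kinase that phosphorylates activated G protein-coupled receptors, lay at 140.4, 158 and 90.2 CPM in DMSO and 697, 562 and 598 CPM in SAG (log2 fold change 2.26, SE 0.24, adjusted p = 0.00393). *Ccnd1* (chr7:144929931-144939831) encodes cyclin D1, and *Cdk6* (chr5:3341004-3531008) a kinase that D-type cyclins activate in G1. *Ccnd1* was at 39.8, 69.1 and 34.9 CPM in DMSO and 321, 218 and 184 CPM in SAG (log2 fold change 2.33, SE 0.33, adjusted p = 0.0366), with SAG replicate 1 the highest. *Cdk6* was at 67.2, 101 and 117 CPM in DMSO and 371, 360.3 and 381 CPM in SAG (log2 fold change 1.96, SE 0.24, adjusted p = 0.0117).

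*Olig1* (chr16:91269769-91271939), a basic helix-loop-helix factor of the oligodendrocyte lineage that astrocyte progenitors also express, lay at 693, 724 and 778 CPM in DMSO and 1807, 1737 and 1819 CPM in SAG (log2 fold change 1.29, SE 0.14, adjusted p = 0.0042). *Ckb* (chr12:111669355-111672338), the brain creatine kinase that buffers ATP, was the most abundant of the called genes, at 2825, 2575 and 3019 CPM in DMSO and 6447, 6581 and 5922 CPM in SAG (log2 fold change 1.17, SE 0.12, adjusted p = 0.00393). Both had narrow groups that were far apart, although in bulk RNA more cells that express a gene and more RNA per cell cannot be told apart. *Id4* (chr13:48261116-48266028), which encodes an inhibitor of DNA binding by basic helix-loop-helix factors, lay at 515, 417 and 410.3 CPM in DMSO and 186, 171 and 131 CPM in SAG (log2 fold change -1.46, SE 0.21, adjusted p = 0.0366). *Tspan18* (chr2:93201760-93334551), a tetraspanin of the cell membrane, lay at 161, 132 and 212 CPM in DMSO and 46.6, 48.9 and 36.97 CPM in SAG (log2 fold change -1.93, SE 0.29, adjusted p = 0.0468). In neither gene did the groups overlap, but both lost the call whichever single library was left out, with adjusted p up to 0.29. The call of *Ptch1*, *Grk3* and *Cdk6* also held with all 17 libraries in the fit, while *Ckb*, *Olig1*, *Ccnd1*, *Id4* and *Tspan18* lost it there (adjusted p between 0.215 and 0.588). With single libraries left out, *Grk3* lost the call without DMSO replicate 1 (adjusted p = 0.0838), and *Ckb* and *Olig1* without DMSO replicate 1, SAG replicate 2 or SAG replicate 3 (up to 0.0863). *Cdk6* lost it without DMSO replicate 1 or 2 or SAG replicate 2 or 3 (up to 0.0863), and *Ccnd1* without any library but DMSO replicate 2 (up to 0.29).

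**Figure D1:**
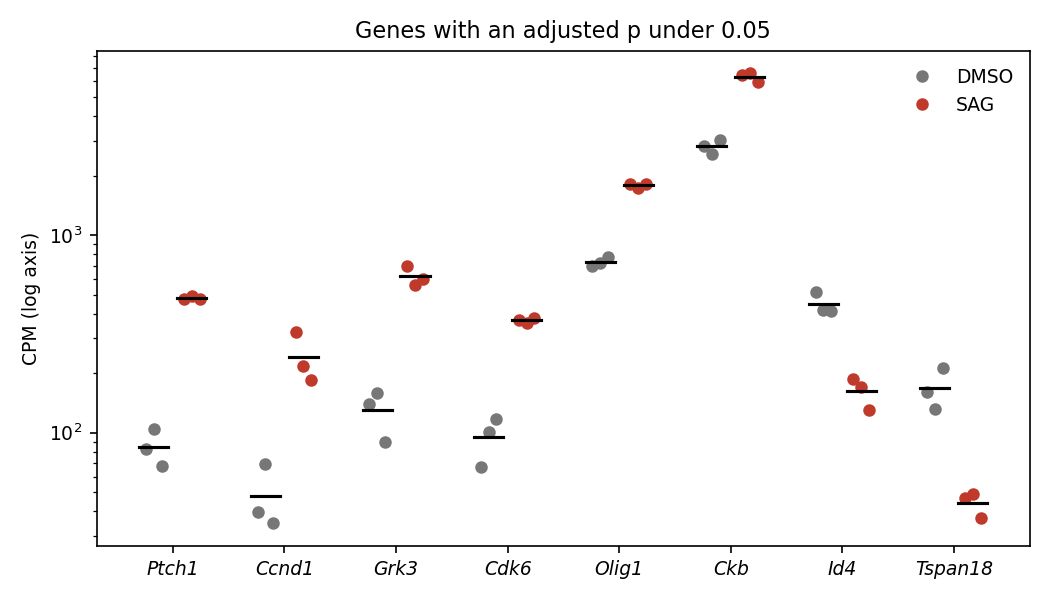
CPM on a log axis of the 8 genes with an adjusted p under 0.05, with 1 point per library (grey DMSO, red SAG, 3 each) and a black line at each group's mean. In all 8 genes the 3 SAG points lie on 1 side of the 3 DMSO points, above them in 6 genes and below them in *Id4* and *Tspan18*.

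Other target genes of the pathway were higher with SAG without passing the adjusted threshold. *Gli1*, the transcription factor whose own transcription reads out the pathway, had 1333, 448 and 210 counts in SAG replicates 1, 2 and 3, and no DMSO library held a count of it. Its mean was at least 253-fold higher than a floor of 3 counts per DMSO library, with an adjusted p of 0.369. *Hhip*, which encodes a decoy that binds SHH, had 0 counts in DMSO and 359, 759 and 532 counts in SAG, at least 190.2-fold above that floor (adjusted p = 0.425). The adjusted p of both genes missed the threshold although no library of one group resembled the other. *Nkx2-2*, a ventral homeobox factor, was at 5.78, 14.8 and 2.86 CPM in DMSO and 37.5, 53.1 and 54.6 CPM in SAG (log2 fold change 2.63, SE 0.75, adjusted p = 0.457). *Olig2*, the partner of *Olig1*, was at 1453, 953 and 1087 CPM in DMSO and 1948, 1882 and 1834 CPM in SAG (log2 fold change 0.70, SE 0.17, adjusted p = 0.369). Of 25 canonical targets listed, 12 were tested, 3 rose (*Ptch1*, *Cdk6*, *Ccnd1*), 7 lay above DMSO in every library and 1, *Ccnd2*, below (58.3% and 8.33%, against 6.22% and 7.89% of all tested genes). Their median log2 fold change was 1.39, and 0.82 for those that are abundant genes. *Gli1* and *Hhip* entered the tested genes only through their SAG libraries. *Nkx2-2*, with a DMSO mean of 7.82 CPM, reached the mean of 20 CPM only through its SAG libraries. Such members add to the share and the medians, which are therefore a description and not support for a difference.

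None of the genes that carry the signal passed the test. *Smo*, which encodes the protein that SAG binds, lay at 42.8, 83.3 and 14.4 CPM in DMSO and 53.9, 61.2 and 59.5 CPM in SAG (log2 fold change 0.32, SE 0.55). *Gli2* and *Gli3*, the factors that carry the signal before *Gli1* is made, had log2 fold changes of 1.06 (SE 1.04) and -0.91 (SE 1.00). The co-receptor genes *Boc*, *Cdon* and *Gas1* had 0.33 (SE 0.84), -0.53 (SE 0.76) and -0.25 (SE 0.23). In all 6 genes the groups overlapped, and the errors are wide for all but *Gas1*. An unchanged level was not tested, so no statement that they kept their level can be made. *Disp1*, which releases SHH from cells that make it, was at 24.1, 10.6 and 24.3 CPM in DMSO and 0, 1.37 and 0.0996 CPM in SAG (log2 fold change -5.30, SE 2.13, adjusted p = 0.748). *Shh* itself stayed at or under 10.2 CPM in every library. *Mycn*, a growth-promoting SHH target in neural progenitors, was at 12.8, 38.1 and 15.9 CPM in DMSO and 10.7, 16.6 and 4.68 CPM in SAG (log2 fold change -1.06, SE 1.01, adjusted p = 1), and *Golph3*, a Golgi protein gene, at 23.5, 14.99 and 6.87 CPM in DMSO and 36.7, 77.1 and 87.7 CPM in SAG (log2 fold change 2.15, SE 0.59, adjusted p = 0.425).

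The 300 bases around an annotated start (250 before, 50 after) are shown for *Ptch1* and *Hhip* because these genes read out the pathway. The *Ptch1* window lies inside the gene, whose 5′ end is at 63573460. The bases around that end were not searched. Sequences are from RefSeq (GRCm38.p6), 5′ to 3′ on the gene's strand, here the minus strand for both, at chr13:63565686-63565985 and chr8:80057959-80058258. Capitals would mark the GLI motif TGGGTGGTC, the sterol element letters TCACCCCAC or the box CCAAT on either strand, and neither window holds any of them.
Ptch1: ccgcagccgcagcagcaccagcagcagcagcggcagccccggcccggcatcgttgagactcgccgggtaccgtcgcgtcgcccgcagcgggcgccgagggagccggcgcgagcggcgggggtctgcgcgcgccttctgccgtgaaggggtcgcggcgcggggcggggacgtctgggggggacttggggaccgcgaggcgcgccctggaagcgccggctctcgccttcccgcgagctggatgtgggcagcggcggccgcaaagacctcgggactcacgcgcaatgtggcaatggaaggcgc
Hhip: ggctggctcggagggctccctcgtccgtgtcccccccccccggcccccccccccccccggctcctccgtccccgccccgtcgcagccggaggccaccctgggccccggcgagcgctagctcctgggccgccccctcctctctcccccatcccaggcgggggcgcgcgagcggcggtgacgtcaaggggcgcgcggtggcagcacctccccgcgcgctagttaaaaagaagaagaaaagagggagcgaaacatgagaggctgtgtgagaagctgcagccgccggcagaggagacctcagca
The GLI motif is in 0.253% of the 32851 promoter windows of the table. Windows for *Gli1*, *Grk3*, *Olig1*, *Ccnd1* and *Tspan18* were not used here, and those of *Cdk6*, *Ckb* and *Id4* do not hold the motif either. The *Cdk6* window also lies inside its gene.

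Restricting the test to the 6599 abundant genes, which removes those absent from a library, gave 19 genes that were higher with SAG (0.288%) and 13 that were lower (0.197%) at an adjusted p under 0.05. All 8 genes above were among these 32, and 14 to 24 of the 32 stayed called with any single library left out of that restricted fit. The values in the next paragraphs give both adjusted p-values, since the restriction also removes genes that are present in 1 group alone. *Pcx*, *Nsdhl* and *Cybrd1*, with DMSO means of 16.6, 11.2 and 19.5 CPM, reached the mean of 20 CPM only through their SAG libraries, so their adjusted p over abundant genes is not support for a difference. *Egfr*, the receptor of the heparin-binding growth factor in the medium, lay at 198, 204 and 222 CPM in DMSO and 530.5, 481 and 414 CPM in SAG (log2 fold change 1.19, adjusted p = 0.0591 over all genes and 0.00264 over abundant genes). *Gfap*, the intermediate filament of mature and reactive astrocytes, lay at 140.4, 201 and 185 CPM in DMSO and 61.3, 36.8 and 26.1 CPM in SAG (log2 fold change -2.08, adjusted p = 0.0854 and 0.00198). *Egfr* was the highest-ranked gene that missed the main threshold, and *Gfap* was the next most significant lower gene after *Id4* and *Tspan18*.

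Further genes higher in every SAG library and called among abundant genes included enzymes of energy and lipid metabolism and a synapse regulator. *Pcx*, pyruvate carboxylase, which refills the citric acid cycle in astrocytes, was at 15.4, 13.1 and 21.3 CPM in DMSO and 47.3, 139 and 121 CPM in SAG (adjusted p = 0.101 over all genes, 0.00528 over abundant genes). *Acsbg1*, a long-chain acyl-CoA synthetase, was at 79.7, 58.6 and 98.2 CPM in DMSO and 261, 191 and 200.04 CPM in SAG (adjusted p = 0.106 and 0.0108). *Sparcl1*, whose product hevin is a synapse-promoting protein secreted by astrocytes, was at 439, 511 and 486 CPM in DMSO and 931, 1076 and 820.05 CPM in SAG (adjusted p = 0.0889 and 0.00443). These 3 genes were separated from DMSO by a margin in every library. *Ldha*, lactate dehydrogenase A, was at 30.3, 61.5 and 34.2 CPM in DMSO and 171, 134 and 89.1 CPM in SAG (adjusted p = 0.301 and 0.0488), and *H2-K1*, a class I histocompatibility gene with close paralogs that may share reads, at 79.5, 69.5 and 73.3 CPM in DMSO and 128, 178 and 250.2 CPM in SAG (adjusted p = 0.247 and 0.0446). *Cerk*, ceramide kinase, was at 66.9, 46.7 and 54.7 CPM in DMSO and 127, 146 and 246 CPM in SAG (adjusted p = 0.125 and 0.0133). *Cybrd1*, a ferric reductase gene, was at 14.5, 27.5 and 16.5 CPM in DMSO and 98.4, 49.8 and 106 CPM in SAG (adjusted p = 0.261 and 0.0488). In these 4 genes too the lowest SAG library was above the highest DMSO library.

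The lower genes of the abundant set included cytoskeletal, metal-binding and secreted protein genes. *Dclk1*, a microtubule-associated kinase, was at 572, 604 and 473 CPM in DMSO and 275, 230.3 and 171 CPM in SAG (adjusted p = 0.0854 over all genes, 0.00198 over abundant genes). *Clu*, clusterin, a secreted chaperone and apolipoprotein, was at 449.9, 442 and 603 CPM in DMSO and 285, 247 and 248 CPM in SAG (adjusted p = 0.207 and 0.0288). *Zmiz1*, a transcriptional coregulator, was at 245, 224 and 223 CPM in DMSO and 110.3, 109 and 99.6 CPM in SAG (adjusted p = 0.118 and 0.04). In each the lowest DMSO library was well above the highest SAG library. *Mt1* and *Mt2*, metallothioneins that bind zinc and copper and are close paralogs, were among the 10 most abundant nuclear genes: *Mt1* lay at 7663, 8215 and 9863 CPM in DMSO and 4939.6, 5757 and 5274 CPM in SAG (adjusted p = 0.118 and 0.00543), *Mt2* at 12268, 10206 and 15122 CPM in DMSO and 6631, 8055 and 7259.7 CPM in SAG (adjusted p = 0.125 and 0.00264). Both metallothioneins were lower in every SAG library. *P4ha3*, a collagen prolyl hydroxylase subunit, was at 155, 87.4 and 172 CPM in DMSO and 42.6, 31.02 and 36.7 CPM in SAG (adjusted p = 0.101 and 0.00741), and *Kcne1l*, a potassium channel subunit, at 111, 69.99 and 129 CPM in DMSO and 25.8, 29.5 and 21.6 CPM in SAG (adjusted p = 0.106 and 0.0194). *Nrep* lay at 329, 412 and 439.7 CPM in DMSO and 158, 213 and 184 CPM in SAG (adjusted p = 0.118 and 0.0133). In these 3 genes the groups did not overlap. *Gnao1*, the Go protein alpha subunit, lay at 475, 541 and 437 CPM in DMSO and 324, 222 and 219.9 CPM in SAG (adjusted p = 0.301 and 0.0446). *Pak1*, a kinase that remodels actin, lay at 70.6, 148 and 92.3 CPM in DMSO and 12.7, 24.8 and 40.7 CPM in SAG (adjusted p = 0.369 and 0.0488).

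**Figure D2:**
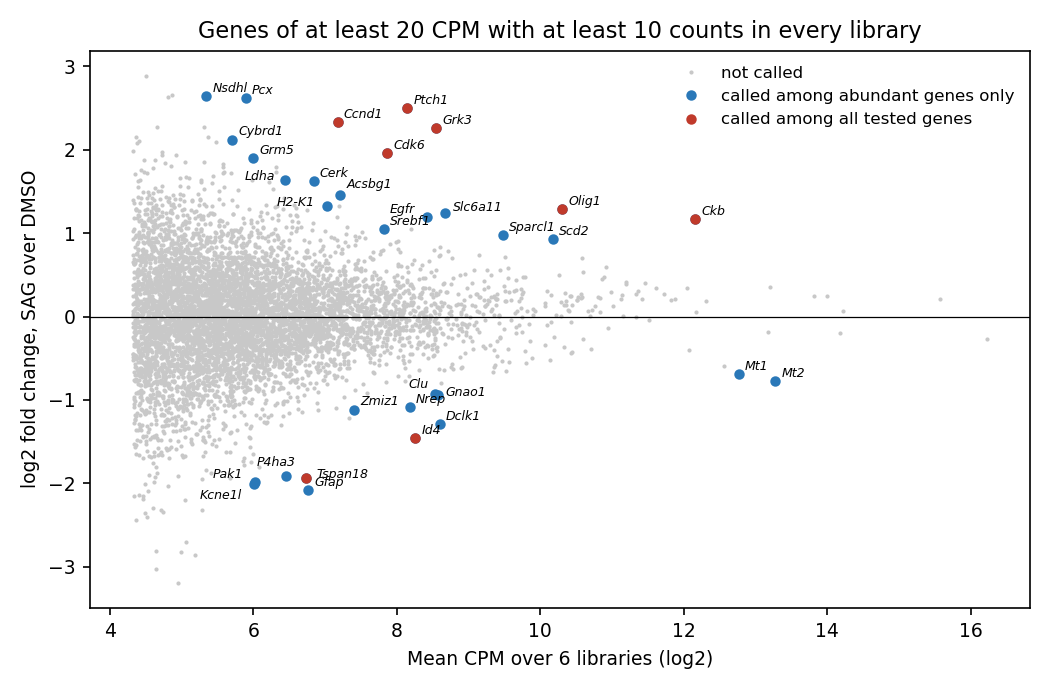
Log2 fold change of SAG over DMSO against the log2 mean CPM of 6 libraries for the 6599 abundant genes, 1 point per gene, with genes called among all tested genes in red and those called among abundant genes alone in blue. The red and blue points, 19 above and 13 below 0, lie at the margin of a cloud centered near 0, and some uncalled genes at low CPM lie as far out.

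Cholesterol synthesis genes lay higher with SAG as a group. Of 25 listed genes, 24 were tested and none passed the adjusted threshold over all genes, while 10 lay above DMSO in every library and 0 below (41.7% and 0%, against 6.22% and 7.89% of all tested genes). An unadjusted p under 0.05 was found for 8 members, all of them higher, where 2.63% of all tested genes are higher at that p. Their median log2 fold change was 1.17, against -0.02 for all tested genes, and 1.01 to 1.27 with single libraries left out. *Nsdhl*, a sterol dehydrogenase, lay at 14.9, 8.2 and 10.5 CPM in DMSO and 83.6, 63.8 and 62.8 CPM in SAG (log2 fold change 2.64, SE 0.49, adjusted p = 0.109, and 0.0277 over abundant genes). *Hmgcs1*, which makes the precursor of mevalonate, lay at 237, 223 and 112 CPM in DMSO and 469, 382 and 332 CPM in SAG (log2 fold change 1.05, SE 0.28, adjusted p = 0.425). Every SAG library stood above the controls in both genes. The squalene epoxidase gene *Sqle* lay at 29.1, 22.8 and 12.2 CPM in DMSO and 86.4, 101 and 36.1 CPM in SAG (adjusted p = 0.469). The demethylase gene *Cyp51* lay at 56.9, 38.6 and 26.2 CPM in DMSO and 99.5, 81.6 and 109 CPM in SAG (adjusted p = 0.475). In both of these genes too the lowest SAG library was above the highest DMSO library. *Srebf2*, which encodes the sterol-responsive factor of these genes, overlapped between groups, at 65.9, 95.9 and 74.3 CPM in DMSO and 118, 141 and 81.8 CPM in SAG. The abundance of the whole list, summed, was 515 to 739.7 CPM in DMSO and 1043 to 1524 CPM in SAG.

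Some fatty acid synthesis genes also lay higher with SAG. Of 17 tested members of 18, 4 lay above DMSO in every library and none below (23.5% and 0%, against 6.22% and 7.89% of all tested genes). Their median log2 fold change was 0.50, but 0.30 without SAG replicate 3. The desaturase gene *Scd2* was at 699, 967 and 725 CPM in DMSO and 1458, 1496 and 1601 CPM in SAG (adjusted p = 0.101 over all genes and 0.00346 over abundant genes). *Srebf1*, whose product turns on fatty acid synthesis, was at 151, 152 and 137 CPM in DMSO and 321, 319 and 270.1 CPM in SAG (adjusted p = 0.118 and 0.0313). *Fasn*, fatty acid synthase, was at 102, 93.2 and 121 CPM in DMSO and 183, 286 and 157 CPM in SAG (adjusted p = 0.425). These 3 were higher in every SAG library, while *Acaca*, the first committed enzyme, overlapped at 24.6, 47.7 and 27.5 CPM in DMSO and 18.2, 26.5 and 4.25 CPM in SAG. *Abca1*, which exports cholesterol to lipoproteins, lay the other way at 531, 529.9 and 429.5 CPM in DMSO and 260.2, 312 and 284 CPM in SAG (log2 fold change -0.80, SE 0.18, adjusted p = 0.301). *Apoe*, the main apolipoprotein of astrocytes, was at 4092, 4845 and 5733 CPM in DMSO and 3283, 3920.1 and 3915 CPM in SAG (log2 fold change -0.40, SE 0.15, adjusted p = 0.68).

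Promoter windows of the cholesterol genes are shown because these members lay together, with the letters chosen after the values were known. Capitals mark TCACCCCAC, letters of a sterol regulatory element, and CCAAT, the box read by NF-Y, each on either strand, so that CCAAT on the opposite strand reads ATTGG. The windows are on the plus strand at chr13:119690101-119690400 and chrX:72918271-72918570.
Hmgcs1: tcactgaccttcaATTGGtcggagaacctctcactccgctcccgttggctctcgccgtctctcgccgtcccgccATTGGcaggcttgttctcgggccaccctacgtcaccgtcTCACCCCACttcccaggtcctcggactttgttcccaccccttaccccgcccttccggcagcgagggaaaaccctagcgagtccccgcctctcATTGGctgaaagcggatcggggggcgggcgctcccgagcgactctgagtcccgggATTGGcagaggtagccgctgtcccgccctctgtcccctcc
Nsdhl: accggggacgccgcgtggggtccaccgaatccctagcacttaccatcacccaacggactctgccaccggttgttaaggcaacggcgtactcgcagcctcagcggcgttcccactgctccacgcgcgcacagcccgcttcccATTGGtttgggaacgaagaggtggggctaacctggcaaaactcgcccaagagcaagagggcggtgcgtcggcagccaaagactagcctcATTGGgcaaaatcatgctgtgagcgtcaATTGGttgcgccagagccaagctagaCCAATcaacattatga
Of the 17 cholesterol genes with a window in the table, 16 (94.1%) hold CCAAT in at least 1 window, against 41.1% of all 27025 genes with a window. TCACCCCAC was in 1 of the 17, *Hmgcs1*, and in 0.614% of all genes. The window of *Sqle* was not used here. A match of letters is a description of the window and not of binding.

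Genes that take up and break down GABA and glutamate were split, with more of them higher. Of 21 tested, 6 lay above DMSO in every library, 2 below (28.6% and 9.52%, against 6.22% and 7.89% of all tested genes). The median log2 fold change was 0.49, but 0.099 without DMSO replicate 3, 0.15 without SAG replicate 2 and 0.31 without SAG replicate 3, and 0.19 for abundant genes. *Slc6a11*, the astrocytic GABA transporter GAT3, lay at 273, 261 and 190.4 CPM in DMSO and 488, 679 and 549 CPM in SAG (log2 fold change 1.24, SE 0.21, adjusted p = 0.0854). Over 13 alternatives its adjusted p ran from 2.46e-09 with DESeq2 to 0.371 without DMSO replicate 3, and 5 of them called it, namely DESeq2, limma voom, the fit over abundant genes (0.00198) and the replicate block over all or abundant genes. The 13 leave out the fit without a filter, the filter on a mean of 10 counts and robust fitting. *Aldh5a1*, which oxidizes a breakdown product of GABA, lay at 14.9, 26.7 and 9.19 CPM in DMSO and 104, 59.98 and 53.03 CPM in SAG (adjusted p = 0.425). In both genes the lowest SAG library exceeded the highest DMSO library. *Glul*, glutamine synthetase, lay lower at 1512, 1665 and 1578 CPM in DMSO and 1002, 1201 and 1319 CPM in SAG (adjusted p = 0.618), and the glutamate transporter genes *Slc1a2* and *Slc1a3* overlapped between groups, at 502, 578 and 437 CPM in DMSO and 375, 517 and 534 CPM in SAG and at 1351, 1368 and 1243 CPM in DMSO and 1619.6, 1452 and 1310.5 CPM in SAG.

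Receptors for these transmitters went both ways. Of 25 tested, 4 were higher in every SAG library and 4 lower (16% and 16%, against 6.22% and 7.89% of all tested genes). A negative log2 fold change was found for 17 of them and a positive one for 8. The median was -0.24, but 0.16 without DMSO replicate 2 and 0.20 for abundant genes. *Gria1*, an AMPA receptor subunit, was nearly unread in DMSO, at 0, 2.7 and 0.454 CPM, and lay at 43.4, 92.5 and 88.8 CPM in SAG (log2 fold change 6.15, SE 1.34, adjusted p = 0.261). *Gria1* entered the tested genes only through its SAG libraries, so the share of higher receptor genes is a description and not support for a difference. *Grm5*, the metabotropic glutamate receptor of young astrocytes, lay at 30.3, 29.1 and 21.1 CPM in DMSO and 84.4, 101 and 116 CPM in SAG (adjusted p = 0.106 over all genes and 0.0288 over abundant genes). *Gria2*, another AMPA receptor subunit, lay at 128, 217 and 165 CPM in DMSO and 309.5, 305 and 315 CPM in SAG and *Gabbr2*, a GABA-B subunit, at 33.4, 45.2 and 57.8 CPM in DMSO and 100.4, 123 and 116 CPM in SAG (adjusted p = 0.425 and 0.369). These 4 were higher in every SAG library. Of the 4 that were lower, the GABA-A subunit gene *Gabrb1* lay at 118, 77.6 and 112 CPM in DMSO and 45.8, 52.6 and 30.2 CPM in SAG (adjusted p = 0.425).

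SOX and NFI factors, which set up and maintain glial fate, lay lower with SAG. Of 16 tested, 8 were below DMSO in every library and 1, *Sox3*, above, where 7.89% and 6.22% of all genes are so. The list also holds a few other transcription factors, of which *Fezf2* and *Rorb* were tested and overlapped between groups. The median log2 fold change of the list was -0.42 and ran from -0.48 to -0.37 with single libraries left out, and none passed the adjusted threshold. *Sox9*, which opens the astrocyte program, lay at 1278, 1286 and 1404 CPM in DMSO and 795, 1107 and 858 CPM in SAG (adjusted p = 0.521). *Nfia*, its partner in gliogenesis, lay at 1041, 1071 and 1209 CPM in DMSO and 779, 832 and 749 CPM in SAG (adjusted p = 0.5), and *Nfib* at 1057, 858 and 778 CPM in DMSO and 734, 527 and 579.8 CPM in SAG (adjusted p = 0.592). In these 3 genes the groups were close but did not overlap. *Sox2*, a progenitor factor, lay at 531, 509.9 and 429 CPM in DMSO and 224, 353 and 367 CPM in SAG (adjusted p = 0.595). *Sox10*, the factor of the oligodendrocyte lineage, lay at 119, 93.3 and 72.6 CPM in DMSO and 49.6, 40.4 and 42.1 CPM in SAG (adjusted p = 0.492).

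Forebrain regional transcription factors were lower or overlapping. Of 26 tested, 7 were below DMSO in every library and none above (26.9% and 0%, against 7.89% and 6.22% of all tested genes), and the median log2 fold change was -0.47. *Dlx2*, a ganglionic eminence factor, lay at 69.2, 41.7 and 87.9 CPM in DMSO and 6.61, 33.4 and 27.6 CPM in SAG (adjusted p = 0.72). *Gsx2*, which patterns the lateral ganglionic eminence, had 353, 180 and 492 counts in DMSO and none in SAG, at least 104.9-fold lower against a floor of 3 counts (adjusted p = 0.574). *Gsx2* entered the tested genes only through its DMSO libraries. It adds to the share and the median, which are therefore a description and not support for a difference. *Meis2*, a TALE homeobox factor, lay at 414, 348 and 457 CPM in DMSO and 309, 274 and 279 CPM in SAG (adjusted p = 0.68). None of these genes passed the adjusted threshold. *Six3*, an anterior forebrain factor, had overlapping groups, at 185, 95.7 and 122 CPM in DMSO and 263, 181 and 178 CPM in SAG.

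**Figure D3:**
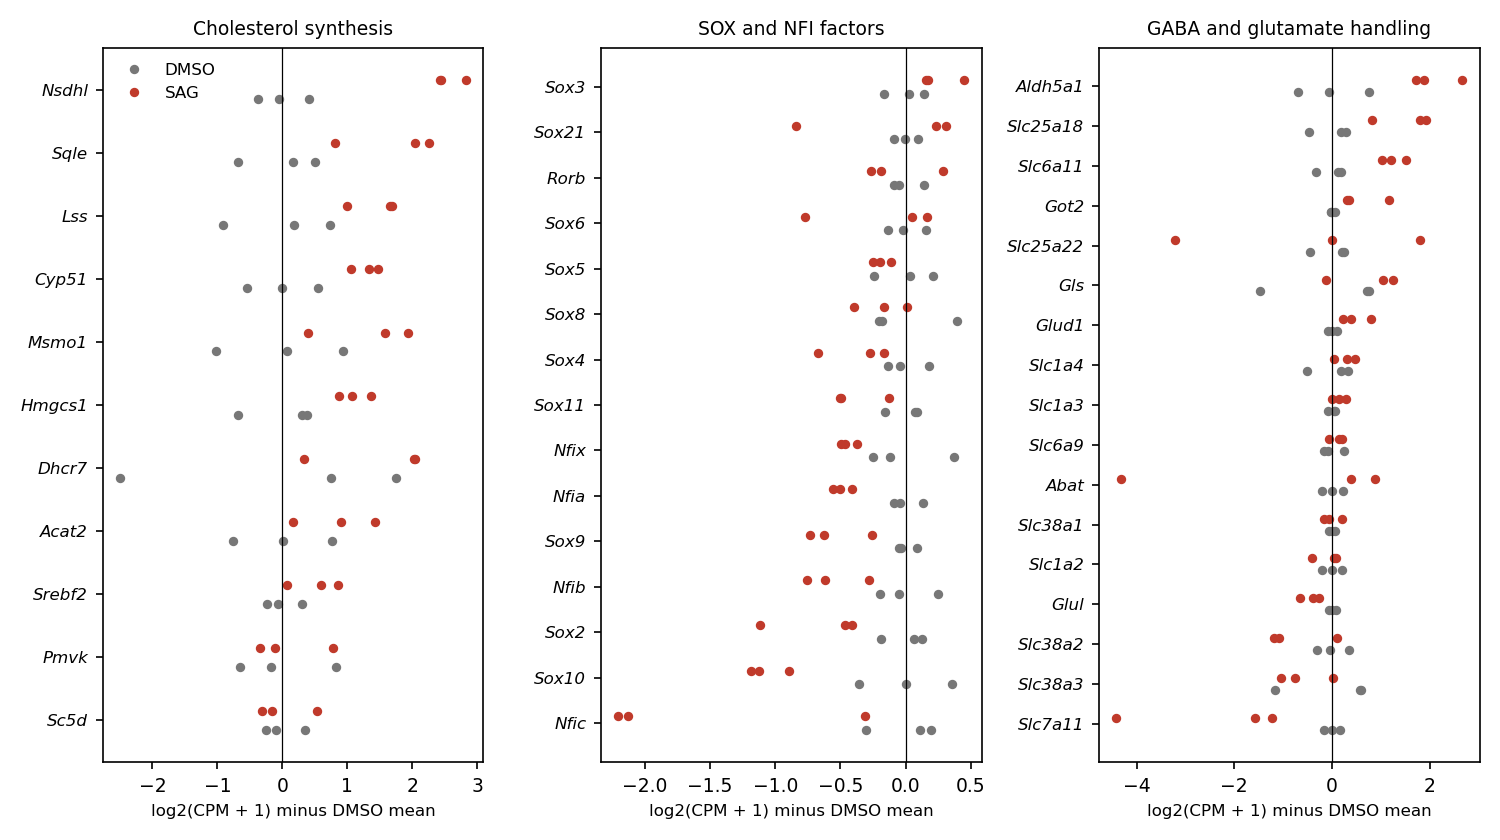
Log2(CPM + 1) minus the DMSO mean for abundant members of 3 lists (cholesterol synthesis, SOX and NFI factors, GABA and glutamate handling), 1 point per library (grey DMSO, red SAG, 3 each). On average the red points lie to the right of the grey ones for most cholesterol genes, to the left for most SOX and NFI genes, and on both sides in the third list.

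Astrocyte markers did not move together. Of 25 tested, 5 were higher in every SAG library and 9 lower (20% and 36%, against 6.22% and 7.89% of all tested genes). Across these markers the median log2 fold change was -0.09 and ran from -0.22 without SAG replicate 3 to 0.0062 without DMSO replicate 2, and their summed level was 16470 to 18948 CPM in DMSO and 15030 to 16411 CPM in SAG. Those higher included *Sparcl1*, *Slc4a4*, a bicarbonate transporter (337 against 179 CPM on average), *Aldh1l1*, a folate enzyme (285 against 164 CPM), and *Slc25a18*, a mitochondrial glutamate carrier (64.3 against 21.2 CPM). Lower were *Gfap*, *Clu*, *Ttyh1*, *F3*, *Sox9*, *Gja1*, *Glul*, *Apoe* and *Ndrg2*, for example the gap junction gene *Gja1* at 108, 129.6 and 124 CPM in DMSO and 52.3, 42.5 and 89.5 CPM in SAG (adjusted p = 0.592). Of these, *F3* had no count in SAG and entered the tested genes only through its DMSO libraries. *Aqp4*, the water channel, overlapped between groups at 50.6, 69.5 and 44.8 CPM in DMSO and 64.97, 41.3 and 39.96 CPM in SAG.

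Some markers of other cell types differed between the groups, and their part in the results was not tested. Of 20 neuron markers, 14 were tested, 6 lay lower in every SAG library and none higher (42.9% and 0%, against 7.89% and 6.22% of all tested genes), and the list summed to 1150.1 to 1418 CPM in DMSO and 747 to 969.96 CPM in SAG. *Elavl3*, a neuronal RNA-binding protein gene, lay at 160.1, 174 and 259.9 CPM in DMSO and 122, 108 and 120.3 CPM in SAG (adjusted p = 0.564), and *Dcx*, a marker of young neurons, at 8.85, 21.9 and 30.2 CPM in DMSO and 0, 4.13 and 0 CPM in SAG (adjusted p = 1). *Rbfox3*, the gene of the neuronal nuclear antigen, overlapped at 8.76, 21.5 and 29.9 CPM in DMSO and 9.71, 27.2 and 31.1 CPM in SAG. Ependymal markers (8 of 12 tested) had 3 lower and none higher (37.5% and 0%, against 7.89% and 6.22% of all tested genes), and summed to 224 to 300.5 CPM in DMSO and 88.8 to 186 CPM in SAG. *Foxj1*, the factor of motile cilia, was at 234, 186 and 144 CPM in DMSO and 71.03, 142 and 129 CPM in SAG (adjusted p = 0.788). *Dcx*, *Gad1* and *Gad2* of the neuron list each lacked a count in a SAG library, and *Ccdc153* of the ependymal list lacked any. All of them entered the tested genes only through their DMSO libraries. They add to the shares of lower members, which are therefore a description and not support for a difference.

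Oligodendrocyte lineage markers were split. Of 17 tested of 21, *Olig1*, *Olig2* and *Nkx2-2* were higher in every SAG library, and 4 were lower, *Sox10*, *Tnr*, *Bcas1* and *Gpr17* (17.6% and 23.5%, against 6.22% and 7.89% of all tested genes). *Tnr*, a matrix protein gene, was at 25.4, 31.7 and 40.9 CPM in DMSO and 8.25, 4.91 and 3.55 CPM in SAG (log2 fold change -2.55, SE 0.87, adjusted p = 0.594), and *Gpr17*, a receptor of committed precursors, at 22.5, 19.2 and 49.1 CPM in DMSO and 0, 0 and 8.06 CPM in SAG (adjusted p = 1). *Gpr17* entered the tested genes only through its DMSO libraries. *Pdgfra*, the growth factor receptor of the precursors, overlapped between groups at 21.7, 25.6 and 31.6 CPM in DMSO and 22.4, 27.2 and 14.9 CPM in SAG. The list summed to 2585 to 3113 CPM in DMSO and 4481 to 4545 CPM in SAG, a sum carried by *Olig1* and *Olig2*. Microglia and macrophage markers (2 of 18 tested) summed to 7.63 to 16.9 CPM in DMSO and 2.79 to 54.4 CPM in SAG, endothelial and mural markers (6 of 17) to 226 to 383 CPM in DMSO and 253 to 289 CPM in SAG, and fibroblast and meningeal markers (3 of 16) to 52.7 to 84.00 CPM in DMSO and 58.8 to 139 CPM in SAG. Of the 6 endothelial and mural markers, 2 were lower in every SAG library and none higher (33.3% and 0%, against 7.89% and 6.22% of all tested genes). These were *Pdgfrb* and *Itm2a*, which entered the tested genes only through their DMSO libraries.

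**Figure D4:**
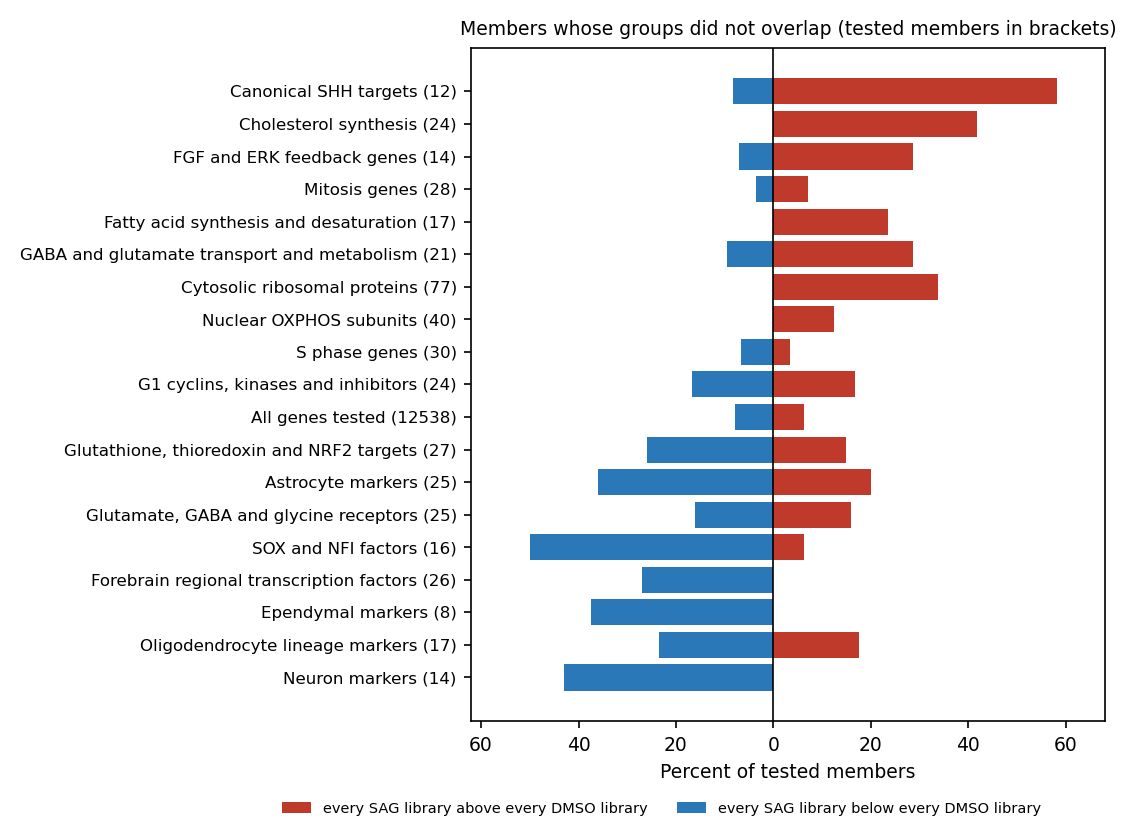
Percent of the tested members of each list (number in brackets) whose SAG libraries all lay above (red, right) or all below (blue, left) the DMSO libraries, ordered by the list's median log2 fold change. Canonical SHH targets, cholesterol synthesis and ribosomal protein genes have long red bars, and SOX and NFI factors and neuron markers long blue ones, beside 6.22% and 7.89% of all tested genes. Some members were tested only through the group in which they were higher.

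Beyond *Ccnd1* and *Cdk6*, cell cycle genes did not pass the test. Among 24 tested G1 genes 4 lay higher in every SAG library and 4 lower (16.7% and 16.7%, against 6.22% and 7.89% of all tested genes). Their median was 0.07 and ran from -0.07 without SAG replicate 3 to 0.53 without DMSO replicate 1. *Ccnd2*, a second D-type cyclin gene and the most abundant of these examples, was at 677, 818 and 772 CPM in DMSO and 584, 676 and 647 CPM in SAG (log2 fold change -0.25, SE 0.16). *Cdk4*, the partner kinase, overlapped at 146, 135 and 166 CPM in DMSO and 132, 143 and 131 CPM in SAG, and the inhibitor gene *Cdkn1b* lay at 555, 699.8 and 560.00 CPM in DMSO and 387, 487 and 511 CPM in SAG (adjusted p = 0.91). Of 30 S phase genes 1 was higher in every SAG library and 2 were lower (3.33% and 6.67%, against 6.22% and 7.89% of all tested genes), with a median of 0.12 that ran from -0.06 without SAG replicate 3 to 0.15 without DMSO replicate 2. Mitosis genes had a median of 0.54, with 2 of 28 higher and 1 lower in every library (7.14% and 3.57%, against 6.22% and 7.89% of all tested genes). This median ran from 0.43 without SAG replicate 2 to 0.83 without DMSO replicate 1. Of these genes 23 had a positive log2 fold change and 5 a negative one. *Top2a*, the mitotic topoisomerase gene, overlapped at 143, 79.7 and 54.9 CPM in DMSO and 212, 226 and 101 CPM in SAG, and *Mki67*, the proliferation antigen gene, at 27.5, 16.8 and 2.67 CPM in DMSO and 25.9, 53.1 and 17.4 CPM in SAG.

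Members of other signaling pathways were examined in the same way. *Jag1*, a Notch ligand gene, had 0 counts in every DMSO library and 1037, 3757 and 354 counts in SAG, at least 476-fold above a floor of 3 counts per library (adjusted p = 0.0624). It had the smallest p of the genes absent from DMSO. *Dll1*, another Notch ligand gene, was at 61.7, 92.7 and 41.1 CPM in DMSO and 101, 105 and 138 CPM in SAG (adjusted p = 0.77), and *Rbpj*, the DNA-binding partner of Notch, was lower at 55.4, 36.3 and 43.3 CPM in DMSO and 9.19, 14.4 and 9.36 CPM in SAG (adjusted p = 0.512). *Jag1* and *Dll1* encode ligands, and both stood above all controls. Over the Notch list 4 of 20 were higher in every SAG library and 1 lower (20% and 5%, against 6.22% and 7.89% of all tested genes). *Jag1* entered the tested genes only through its SAG libraries, so neither its adjusted p nor this share is support for a difference. Of 14 feedback genes of FGF and ERK signaling 4 were higher and 1 lower (28.6% and 7.14%, against 6.22% and 7.89% of all tested genes). Their median log2 fold change was 0.96, but 0.52 without SAG replicate 1, and 0.75 for abundant genes. No member had an unadjusted p under 0.05 in the quasi-likelihood test, in either direction. *Dusp6*, an ERK phosphatase gene, was at 46.9, 29.9 and 36.04 CPM in DMSO and 91.1, 66.5 and 50.3 CPM in SAG (adjusted p = 0.881), and *Spry1*, a receptor tyrosine kinase inhibitor gene, at 18.6, 20.4 and 22.1 CPM in DMSO and 88.3, 23.9 and 35.8 CPM in SAG (adjusted p = 0.913), where SAG replicate 1 stands apart. The SAG and DMSO libraries of *Dusp6* and *Spry1* were close at their nearest. BMP pathway genes had 3 of 21 lower and none higher (14.3% and 0%, against 7.89% and 6.22% of all tested genes). Besides *Id4* these were *Id2*, at 84.96, 53.8 and 113 CPM in DMSO and 36.7, 43.6 and 46.96 CPM in SAG (adjusted p = 0.693), and *Bmp6*, whereas *Id3* had overlapping groups, at 24.4, 93.9 and 58.8 CPM in DMSO and 57.5, 209 and 143 CPM in SAG. The WNT genes *Fzd2*, a receptor, at 148, 135 and 206 CPM in DMSO and 54.7, 94.3 and 76.3 CPM in SAG, and *Wnt5a*, a ligand, at 77.02, 43.9 and 74.9 CPM in DMSO and 153, 141 and 116 CPM in SAG, differed in opposite directions (adjusted p = 0.425 and 0.447).

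Ribosomal protein genes lay slightly higher with SAG. Of 77 tested, 26 lay above DMSO in every library and none below (33.8% and 0%, against 6.22% and 7.89% of all tested genes), 72 had a positive log2 fold change, and the median was 0.25 (0.21 to 0.31 with single libraries left out). No member passed the adjusted threshold. *Rpl15* lay at 59.5, 130.4 and 60.6 CPM in DMSO and 194, 191 and 245 CPM in SAG (adjusted p = 0.369) and *Rpl7a* at 229.8, 340.1 and 272 CPM in DMSO and 573, 456 and 468 CPM in SAG (adjusted p = 0.369). Many of these genes have processed pseudogenes that can share their reads, so single values are uncertain. Nuclear genes of oxidative phosphorylation had 5 of 40 higher and none lower (12.5% and 0%, against 6.22% and 7.89% of all tested genes), and a median of 0.18, which became 0.10 without DMSO replicate 1, 0.12 without SAG replicate 2 and 0.11 without SAG replicate 3. *Atp5d*, an ATP synthase subunit gene, lay at 368, 243 and 311 CPM in DMSO and 678, 509 and 398 CPM in SAG (adjusted p = 0.5). Glycolysis genes were split, 5 higher and 3 lower of 25 (20% and 12%, against 6.22% and 7.89% of all tested genes). Redox and metal-response genes were split too, 4 higher and 7 lower of 27 (14.8% and 25.9%, against 6.22% and 7.89% of all tested genes), with *Txn1*, thioredoxin, at 488, 524 and 673 CPM in DMSO and 869, 771 and 848 CPM in SAG (adjusted p = 0.512) against the lower *Mt1* and *Mt2*. Mitochondrial transcripts took 15.2% to 17.6% of counts in DMSO and 14.0% to 17.3% in SAG.

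The study's markers of medial and lateral septal astrocytes, taken from its single-nucleus data and not from these libraries, were looked up because the medial cells lie near neurons that make SHH. Of 20 medial markers 13 were tested, and 5 were higher in every SAG library: *Slc6a11*, *Gria1*, *Itih3*, *Gpld1* and *Nebl*. *Itih3*, a gene of a secreted protein that binds hyaluronan, was at 4.91, 6.36 and 0 CPM in DMSO and 123, 73.9 and 51.2 CPM in SAG (log2 fold change 4.46, SE 1.24, adjusted p = 0.432), and *Nebl*, which encodes an actin-binding protein, at 10.2, 29.9 and 7.05 CPM in DMSO and 36.3, 54.7 and 31.4 CPM in SAG (adjusted p = 1). None of the medial markers was lower in every library (38.5% and 0%, against 6.22% and 7.89% of all tested genes). *Gria1* and *Itih3*, each without a count in a DMSO library, entered the tested genes only through their SAG libraries. Such members add to the share, the median and the sum, which are therefore a description and not support for a difference. Over the medial markers the median log2 fold change was 0.82, but 0.33 without DMSO replicate 1, 0.35 without SAG replicate 1 and 0.53 without SAG replicate 2, and -0.39 for the 6 of them that are abundant genes. *Erbb4*, a neuregulin receptor gene, overlapped at 88.5, 79.6 and 85.7 CPM in DMSO and 23.5, 74.9 and 103 CPM in SAG. Of 20 lateral markers 16 were tested, 1 was higher in every SAG library (*Cdh4*, a cadherin gene, at 119, 70.8 and 94.97 CPM in DMSO and 124, 206 and 145 CPM in SAG) and 2 were lower, *Gnao1* and *Csmd1* (6.25% and 12.5%, against 6.22% and 7.89% of all tested genes). Their median was -0.29, but 0.0087 without DMSO replicate 2, -0.19 without SAG replicate 1 and -0.13 without SAG replicate 2, and -0.013 for abundant genes. Neither median was tested. The summed level of the medial list was 510.04 to 560.5 CPM in DMSO and 894 to 1194 CPM in SAG. *Slc6a11* alone made up 241 CPM of it on average in DMSO and 572 CPM in SAG. Of the 13 tested medial markers, 7 had a positive log2 fold change and 6 a negative one.

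Genes with at most 3 counts in every library of one group and at least 100 in every library of the other numbered 14 that were read only in SAG and 50 that were read only in DMSO. The SAG libraries also lacked more of the tested genes in general, as given above, and how far that accounts for the unequal numbers was not tested. Besides *Jag1*, *Gli1* and *Hhip*, the first set held *Lpl*, lipoprotein lipase, with 393, 876 and 190 counts in SAG (at least 149-fold above a floor of 3 counts per DMSO library), and *Rimbp2*, a presynaptic scaffold gene, with 685, 2435 and 625 counts (at least 373-fold). *Hic1*, a transcriptional repressor gene, had 708, 489 and 183 counts (at least 164-fold). None of these passed the adjusted threshold, with adjusted p of 0.5 for *Lpl*, 0.101 for *Rimbp2* and 0.469 for *Hic1*.

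Examples of the genes that were read only in DMSO follow. *Cacna1d*, an L-type calcium channel gene, had 541, 393 and 879 counts in DMSO and 0, 3 and 0 in SAG, at least 186-fold lower against a floor of 3 counts per SAG library (adjusted p = 0.457). *Smoc2*, a matrix protein gene, had 403, 325 and 1433 counts in DMSO and 0 in SAG (at least 231-fold lower, adjusted p = 0.369). *Adamts4*, a protease that cleaves proteoglycans, had 702, 200 and 662 counts and then 0 (at least 157-fold lower, adjusted p = 0.451), and *F3*, tissue factor, 418, 297 and 917 and then 0 (at least 171-fold lower, adjusted p = 0.425). *Csmd3*, a gene of a large membrane protein, had 671, 521 and 479 counts and then 0 (at least 164-fold lower, adjusted p = 0.425). The counts varied up to several fold between the DMSO libraries that held these genes. *Dnah6*, a gene of the dynein of motile cilia, with no count in SAG, and *Nek5*, a kinase gene, with 1 count in SAG replicate 1, belonged to the same set.

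The most abundant nuclear genes set the frame for these differences. *Malat1*, a nuclear noncoding RNA, took 46508, 50710.2 and 38061 CPM in DMSO and 53552, 56008 and 47325 CPM in SAG (log2 fold change 0.21, SE 0.12), and the ribosomal protein genes *Rps21* and *Rps26* had log2 fold changes of 0.06 and 0.22. *Dbi*, which encodes an acyl-CoA binding protein and ligand at GABA-A receptors, lay lower in every SAG library at 6268, 9316 and 6316 CPM in DMSO and 4417, 4766 and 5294 CPM in SAG (log2 fold change -0.60, SE 0.16, adjusted p = 0.425). *Nnat*, an imprinted membrane protein gene, overlapped at 4005, 2809.8 and 4336 CPM in DMSO and 4125, 5317 and 4728 CPM in SAG. *Fabp7*, the fatty acid binding protein of radial glia and young astrocytes, lay higher at 1382, 1627 and 1611 CPM in DMSO and 2112, 2283 and 2587 CPM in SAG (log2 fold change 0.60, SE 0.14, adjusted p = 0.369).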

How the data were processed

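Astrocyte cultures treated with SAG or DMSO (3 each) were profiled from the 3′ ends of poly(A) transcripts with a stranded kit, with BC1 transcripts removed. Alignment and counting per gene were done by the authors with STAR, and the deposited values are whole-number counts without normalization. The submitters' processing notes name GRCm38. The annotation, the strand setting of the counting and any removal of PCR copies are not given in the sources used here, so copied reads could be counted repeatedly and overlapping or near-identical genes could share reads. The columns named Shh 1 to 3 were taken as SAG replicates 1 to 3.

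Of 56805 rows, 114 spike-in rows (at most 86 counts in a library) were left out. No pair of libraries within a group held the same counts (chi-square per degree of freedom 260 to 383). The analysis used R 4.3.3 and edgeR 4.0.16, with genes kept by filterByExpr (minimum count 10, minimum total 15), TMM normalization, the quasi-likelihood test on the 6 libraries without covariates and Benjamini-Hochberg adjustment over 12538 genes. Genes were called at an adjusted p under 0.05. SE was taken from the F statistic, and CPM are TMM-normalized. The test was also run on simulated counts, whose outcome is not reported here and is not support for the calls.

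Members and gene lists were chosen with earlier results of these data known. Named were all called genes, the 15 non-overlapping abundant genes in each direction with the smallest p, up to 10 genes per direction absent from 1 group, the extreme members of 54 lists, a set of pathway genes and the 10 most abundant nuclear genes. The text gives those that bear on a result, some list members are not reported here though the list counts and sums hold them, and further list members were picked after their values were seen. Genes with at most 3 counts per library were given a floor of 3 counts. A gene read in 1 group alone could pass the filter through that group, so list shares and medians are descriptions. Alternatives were other size factors, filters, DESeq2 1.42.0, limma 3.58.1 voom, robust fitting, all 17 libraries, a replicate block, other thresholds and single libraries left out. Fits over abundant genes with single libraries left out were added after seeing the data. Promoters and gene positions are from RefSeq (GRCm38.p6).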

Additional observations from a re-analysis of the deposited data

How the results depend on the processing

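The number of genes called between SAG and DMSO, 8 as reported, depended on the processing. It was 76 without a filter, 42 with a mean of 10 counts, 32 over abundant genes, 394 with DESeq2's Wald test, 88 with limma voom, 18 with robust fitting, 4 with all 17 libraries, 14 at an adjusted p under 0.1, and 4 at an adjusted p under 0.01 with a log2 fold change above 1. Of the 394 DESeq2 calls, 155 had at most 3 counts in every library of 1 group. With single libraries left out the count ran from 1 to 7, with 1 without DMSO replicate 1 (Ptch1), and over abundant genes from 15 to 25 where 32 were called. All 8 genes were called again with DESeq2, voom, robust fitting and the filters, and all but Tspan18 with DESeq2's size factors (7 calls). Replicate numbers did not pair the libraries (correlations of deviations -0.01, 0.03 and 0.01). With the replicate block 12 genes were called, and 44 with the replicate block over abundant genes. Of 551 alternative values for 43 named genes 3 changed sign, those of Smo without DMSO replicate 3 and of Boc without DMSO replicate 3 or SAG replicate 1. With single libraries left out the log2 fold change of Smo ran from -0.12 to 1.02 and that of Boc from -0.10 to 0.83. Of 52 list medians, 23 changed sign in at least 1 fit with a library left out, none of them those of cholesterol synthesis, ribosomal proteins, SOX and NFI factors, forebrain factors or neuron markers.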
